A study of Sus scrofa with 19 samples.

Results

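Nuclear-encoded subunits of oxidative phosphorylation (OXPHOS) were examined in RNA-seq counts of pig left ventricular (LV) myocardium. Members were the genes whose symbol in the authors' table begins with NDUFA, NDUFB, NDUFC, NDUFS or NDUFV (assembly factors beginning with NDUFAF left out), is SDHA to SDHD, or begins with UQCR, COX4 to COX8 or ATP5. This rule found 70 of the 25879 genes in the count files, and all 70 passed the filter on low counts and were among the 13552 genes tested. By symbol, 34 belonged to complex I, 4 to complex II, 4 to complex III, 12 to complex IV and 16 to complex V. NDUFA4 and NDUFA4L2, which begin like complex I genes, were counted with complex IV, where their proteins are placed today, and the ATP synthase inhibitor ATP5IF1 with complex V. The symbol rule misses 8 subunits that the authors' table lists without such a symbol and that only a reference names: NDUFB1, CYC1, UQCR11, UQCRQ, COX4I1, COX6A2, COX7A2L and COX8A. These 8 are not counted among the 70 members, and values are given for some of them. COX4I1, COX6A2, COX7A2L and COX8A are included with the named members in the closing section.

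The respiratory chain sits in the inner mitochondrial membrane. Complex I takes electrons from NADH and complex II takes them from succinate, ubiquinone carries them to complex III and cytochrome c to complex IV, and the protons pumped along the way drive ATP synthesis by complex V. Heart muscle is among the tissues richest in these complexes, and most of their subunits are encoded in the nucleus, whereas a small catalytic core of complexes I, III, IV and V is encoded by mitochondrial DNA.

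The 19 libraries came from 19 large white pigs, all labelled female, with 1 library per pig. DOX (n = 5) had received doxorubicin and MYO (n = 5) the liposomal doxorubicin Myocet, each at 60 mg/m2 in 3 cycles, with anterior wall tissue taken 3 months after the first injection. RemoLV (n = 3) had a reperfused infarction after 90 min of coronary occlusion, with posterior wall tissue, remote from the infarct, taken after 6 months. Hyper (n = 3) carried a stent of 9 mm that made a stenosis of the aortic isthmus, and Control (n = 3) pigs served as controls, both with anterior wall tissue taken at 6 months. The controls were sham-operated by the sample descriptions and untreated by the study's methods. DOX and MYO data were taken from an earlier study and from pigs followed for 3 months instead of 6, so that a difference of series or follow-up and a difference of treatment cannot be told apart for these 10 libraries. Because each library is a different pig, the p-values measure the spread between pigs.

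Several facts of the libraries precede the results. The deposited counts summed to between 9527710 and 20370209 per library. The authors' table carries other sample names than the count files: for 8 of 19 libraries the group differs, with Control and RemoLV exchanged altogether and 1 DOX and 1 MYO library exchanged. Which naming is right was not settled here. Groups here are those of the count files (file labels), and results with the other naming (table names) are given separately. The libraries labelled RemoLV lacked the ventricular light chain: MYL2 was at 18.6, 115 and 40.0 CPM (counts scaled to the same library size) against 13580 to 18080 in Control. Summed over the 5 atrial cardiomyocyte markers with counts, they reached 9478 to 12730 CPM, against 102 to 153 in Control, 1120 to 2429 in DOX, 760 to 1252 in MYO and 195 to 1258 in Hyper. The Y-linked DDX3Y was at 96.0 to 177 CPM in all 10 DOX and MYO libraries and at 0 to 0.137 in the other 9, although every pig is labelled female. A difference of sex, if DDX3Y marks one, thus cannot be told apart from a difference of treatment for these 10 libraries. Control 2 stood apart from the other Control libraries: the chi-square per degree of freedom between the counts of 2 libraries was 14.7 for Control 1 and 3, but 101 and 128 for the pairs with Control 2, the latter the largest of the 29 pairs within groups. This statistic rises with the number of counts, and the Control libraries held the most. DOX 1 stood at 40.8 to 96.8 with the other DOX libraries, against 20.2 to 35.5 among those others. The part of these differences in the results below was not tested.

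Transcripts of OXPHOS subunits were lower in DOX, MYO and RemoLV than in Control, with all 5 complexes on the same side. The largest differences were in RemoLV. In Hyper no member was called, and neither was any of the 13552 genes tested. The lower level in DOX, MYO and RemoLV holds relative to all genes. With unscaled library totals the median of the members stood at -0.07 in DOX, 0.02 in MYO and -0.26 in RemoLV. CPM here are counts divided by the library total after scaling with TMM, a method that assumes that most genes do not differ between libraries. The median of the 70 members relative to the mean log2 CPM of the Control libraries was -0.48, -0.60, -0.54, -0.49 and -0.46 in the 5 DOX libraries and -0.33, -0.41, -0.36, -0.49 and -0.56 in the 5 MYO libraries. It was -0.65, -0.71 and -0.95 in RemoLV, -0.07, 0.05 and -0.08 in Hyper and 0.15, -0.26 and 0.10 in Control. All 13 DOX, MYO and RemoLV libraries thus lay below the lowest Control library, and RemoLV 3 was the lowest of all. In bulk tissue, fewer cells of a type and less RNA per cell cannot be told apart. As a share of all counts on genes, the members took 2.68 to 2.81% in Control and 2.86 to 3.05% in Hyper, 2.18 to 2.52% in RemoLV, and 2.63 to 2.89% in DOX beside 2.60 to 3.06% in MYO. By this unscaled share RemoLV alone lay below Control, and the ranges of DOX and MYO overlapped that of Control. As a share of the counts outside the mitochondrially encoded genes, the members took 3.495 to 3.90% in Control and 3.75 to 3.87% in Hyper, against 2.63 to 3.19% in RemoLV, 3.06 to 3.37% in DOX and 3.17 to 3.55% in MYO, so that on this scale DOX and RemoLV lay wholly below Control and MYO overlapped it.

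**Figure D1:**
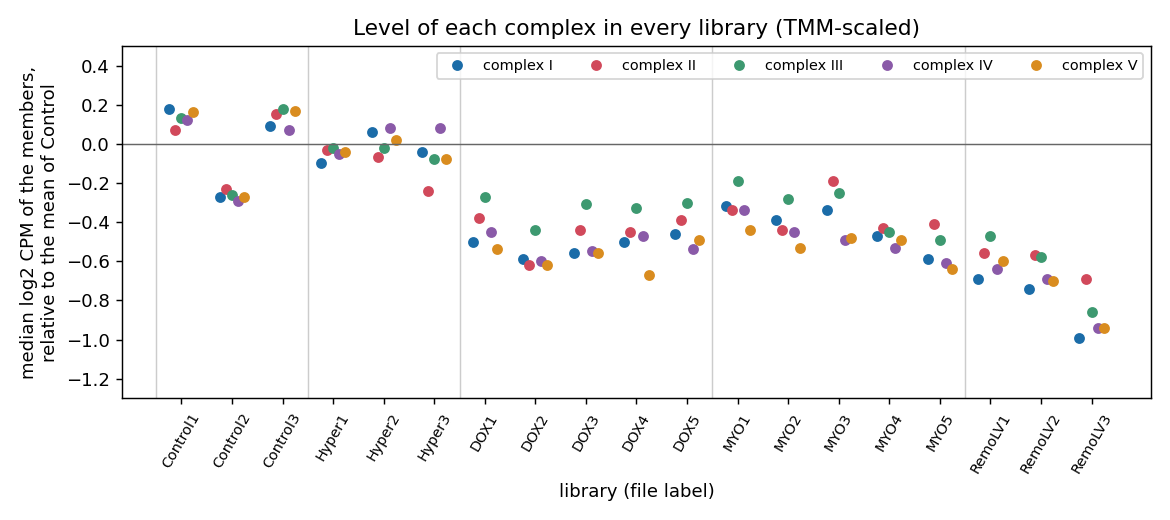
Median log2 CPM of the members of each complex relative to the mean of the Control libraries (y axis, log2), for each of the 19 libraries (points) in the 5 groups (x axis). The 13 DOX, MYO and RemoLV libraries lie below Control 2, the lowest Control library at -0.23 to -0.29, in every complex except that MYO libraries reach -0.19 in complexes II and III.

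Against Control, 55 of 70 members were lower in DOX and 0 higher, where 21.1% of all genes tested were called lower and 21% higher (quasi-likelihood test of edgeR, called at a p of at most 0.05 after Benjamini-Hochberg adjustment over all 13552 genes). In MYO, 52 members were lower and 1 was higher, beside 21.7% and 20.7% of all genes. In RemoLV, 65 members were lower and 0 higher, beside 24% and 23.1% of all genes. The median log2 fold change of the 70 members was -0.52 in DOX, -0.43 in MYO and -0.79 in RemoLV, against 0.03, 0.02 and 0.02 over all genes tested. The counts of 0 higher were also 0 at an unadjusted p of at most 0.05 and with DESeq2. The changes were moderate in size: members ranged from -1.37 to 0.33 in DOX, from -1.20 to 0.51 in MYO and from -2.62 to 0.29 in RemoLV, and COX6B2 in RemoLV was the only member past the study's own threshold of an absolute log2 fold change of 2. The 3 comparisons share the Control libraries. Below, a gene's value in a group is its log2 fold change vs. Control unless it is given in CPM, and 3 values in a row stand for DOX, MYO and RemoLV in this order. The calls differed with the Control libraries used: without Control 2, 60, 59 and 67 members were lower, beside 21.9%, 22.8% and 26% of all genes. With only Control 2 kept, 17, 7 and 37 were lower, beside 9.86%, 9.41% and 11.2%, a setting that changes both the number and the identity of the controls and in which the single library is assumed to vary like the other groups.

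**Figure D2:**
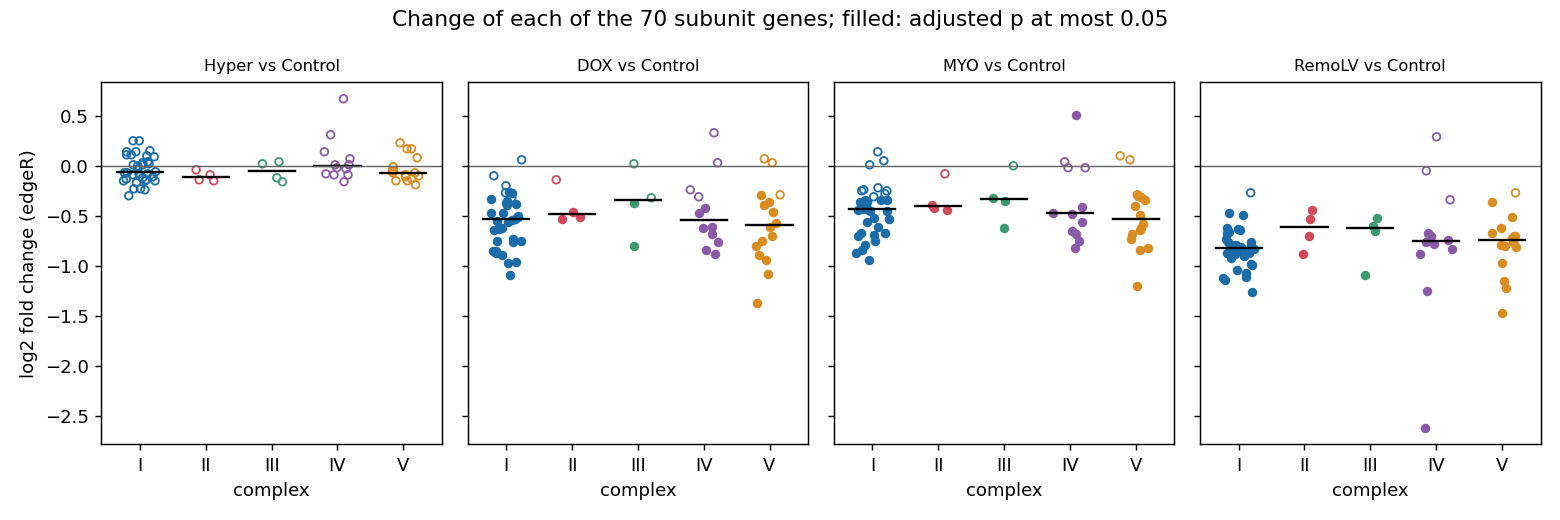
Log2 fold change vs. Control (y axis) of each member (points) by complex (x axis) in 1 panel per comparison, with filled points for members called at an adjusted p of at most 0.05 and lines at the medians. Complex medians lie between -0.34 and -0.59 in DOX and MYO, between -0.61 and -0.83 in RemoLV and between -0.11 and 0.00 in Hyper.

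In complex I, the NADH dehydrogenase with the most subunits of the chain, 29 of 34 members were lower in DOX, 25 in MYO and 33 in RemoLV, with medians of -0.54, -0.43 (0.02 with library totals) and -0.83. NDUFA1, an accessory subunit of the membrane arm encoded on the X chromosome, showed the largest change of the complex in DOX and in MYO. NDUFA1 was at 108, 110, 130, 141 and 146 CPM in DOX, at 147, 149, 153, 125 and 130 in MYO and at 135, 122 and 112 in RemoLV, against 245, 274 and 225 in Hyper and 283, 198 and 332 in Control. Every DOX, MYO and RemoLV library was thus below the lowest Control library. Its log2 fold change was -1.09 (SE 0.14, adjusted p = 1.92e-05) in DOX, -0.94 (adjusted p = 7.55e-05) in MYO and -1.14 (adjusted p = 2.97e-05) in RemoLV.

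NDUFS4, an accessory subunit near the NADH-oxidizing module (chr16:32874418-32985638, plus strand), changed most in RemoLV. It was at 203, 183, 169, 181 and 204 CPM in DOX, at 212, 193, 210, 210 and 184 in MYO and at 155, 165 and 142 in RemoLV, against 388, 346 and 312 in Hyper and 364, 336 and 403 in Control. RemoLV held the lowest values and Hyper overlapped Control. The log2 fold change of NDUFS4 was -0.97 (SE 0.10, adjusted p = 1.14e-06) in DOX, -0.87 (SE 0.10, adjusted p = 3.85e-06) in MYO and -1.26 (SE 0.11, adjusted p = 1.84e-07) in RemoLV.

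NDUFS1, which carries iron-sulfur clusters of the NADH module of complex I, had a log2 fold change of -0.32 (95% interval -0.59 to -0.04, adjusted p = 0.0571) in DOX and -0.34 (adjusted p = 0.0429) in MYO. NDUFV1, which binds the flavin, was lower in DOX, at -0.35 (adjusted p = 0.0271, and 0.0928 with the replicate number as a block), and stood at -0.22 (adjusted p = 0.141) in MYO. NDUFV2, an iron-sulfur subunit of the same module, was lower, at -0.53 (adjusted p = 0.00127) in DOX, -0.44 (adjusted p = 0.00491) in MYO and -0.79 in RemoLV. In RemoLV NDUFS1 and NDUFV1 were lower, at -0.64 and -0.66. The 95% intervals of DOX and MYO overlapped for NDUFS1 and for NDUFV1. Besides NDUFS1, the members of complex I not called in DOX were NDUFA10 (0.06), NDUFS6 (-0.20), NDUFS7 (-0.10) and NDUFS8 (-0.27), of which NDUFS7 and NDUFS8 hold iron-sulfur clusters on the path to ubiquinone. NDUFA10 (-0.27) was the only member of complex I not called in RemoLV. NDUFB1, an accessory subunit outside the symbol rule, was lower, at -1.61 in DOX, -1.42 in MYO and -1.66 in RemoLV, beyond every complex I member in these groups.

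In complex II, the succinate dehydrogenase shared with the tricarboxylic acid (TCA) cycle and encoded wholly in the nucleus, SDHB, SDHC and SDHD were lower in DOX and MYO, and all 4 subunits were lower in RemoLV, with medians of -0.49, -0.40 (0.04 with library totals) and -0.61. SDHA, the flavoprotein that oxidizes succinate, was at 925, 834, 932, 928 and 894 CPM in DOX, at 962, 950, 985, 871 and 937 in MYO and at 794, 741 and 671 in RemoLV, against 901, 1056 and 948 in Hyper and 1151, 848 and 991 in Control. The 3 RemoLV values were below Control, while the DOX and MYO values fell within its range except for 834 in DOX. SDHA had a log2 fold change of -0.14 (95% interval -0.35 to 0.06, adjusted p = 0.256) in DOX, -0.08 (-0.29 to 0.13, adjusted p = 0.522) in MYO and -0.44 (SE 0.11, adjusted p = 0.00359) in RemoLV.

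SDHB, the iron-sulfur subunit next in the electron path, was at 324, 277, 305, 298 and 319 CPM in DOX and 328, 319, 354, 296 and 304 in MYO. It was at 233, 241 and 211 CPM in RemoLV, 397, 418 and 370 in Hyper and 439, 354 and 465 in Control. RemoLV was lowest without overlap, and MYO 3 reached the value of Control 2. Its log2 fold changes were -0.46 (adjusted p = 0.00113), -0.39 (adjusted p = 0.00382) and -0.88 (SE 0.11, adjusted p = 7.54e-06) in DOX, MYO and RemoLV. The membrane anchors SDHC and SDHD stood at -0.53 and -0.51 in DOX, -0.42 and -0.44 in MYO and -0.70 and -0.53 in RemoLV.

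In complex III, the cytochrome bc1 complex, the symbol rule finds 4 members, and these differed among themselves. Of the 4, 2 were lower in DOX, 3 in MYO and 4 in RemoLV, with medians of -0.34, -0.34 and -0.63, which with library totals were 0.10, 0.11 and -0.11. UQCRC1, a large matrix-facing core protein with no part in electron transfer, was at 1020, 856, 947, 958 and 892 CPM in DOX, at 1018, 1017, 888, 813 and 870 in MYO and at 641, 605 and 516 in RemoLV, against 886, 968 and 943 in Hyper and 1041, 779 and 943 in Control. RemoLV lay below all other libraries, and the DOX and MYO libraries lay within the Control range. The log2 fold change of UQCRC1 was 0.02 (95% interval -0.21 to 0.25, adjusted p = 0.893) in DOX and 0.00 (-0.23 to 0.23, adjusted p = 0.998) in MYO, but -0.65 (SE 0.12, adjusted p = 0.000388) in RemoLV. The difference of DOX and MYO from RemoLV was itself called for this gene (0.66, SE 0.10, adjusted p = 9.48e-05). With CYC1, the cytochrome c1 of the same complex outside the symbol rule, the values were 0.11, 0.21 and -0.50, the last called at an adjusted p of 0.016.

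UQCR10, a small subunit of complex III, changed most in the complex. It was at 128, 123, 151, 156 and 142 CPM in DOX, 148, 174, 179, 153 and 143 in MYO and 124, 121 and 99.3 in RemoLV, against 213, 277 and 266 in Hyper and 299, 164 and 272 in Control. DOX and RemoLV did not overlap Control, whereas MYO 2 and 3 lay above Control 2. UQCR10 was lower, at -0.80 (SE 0.15, adjusted p = 0.000583), -0.62 (adjusted p = 0.00404) and -1.09 (SE 0.18, adjusted p = 9.35e-05). UQCRFS1, the Rieske iron-sulfur protein, was lower, at -0.37, -0.32 and -0.52 in DOX, MYO and RemoLV.

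In complex IV, cytochrome c oxidase, 8 of 12 members were lower in DOX, 8 in MYO and 9 in RemoLV, with medians of -0.54, -0.48 and -0.75. COX7C, a small nuclear subunit, was at 621, 559, 567, 548 and 602 CPM in DOX, at 656, 605, 610, 581 and 568 in MYO and at 472, 453 and 416 in RemoLV, against 1036, 1038 and 947 in Hyper and 1130, 827 and 1242 in Control. None of the DOX, MYO and RemoLV libraries overlapped Control. Its log2 fold changes were -0.88 (SE 0.11, adjusted p = 9.25e-06), -0.82 (SE 0.11, adjusted p = 2.01e-05) and -1.25 (SE 0.12, adjusted p = 5.92e-07). COX5A, which binds near the catalytic core, was lower, at -0.47, -0.41 and -0.70.

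Members of complex IV that exist as tissue or condition isoforms did not all move together. COX7A1, the heart and skeletal muscle isoform, was at 362, 313, 335, 354 and 330 CPM in DOX, 335, 341, 402, 383 and 342 in MYO and 356, 337 and 298 in RemoLV, against 577, 630 and 625 in Hyper and 709, 488 and 628 in Control. The 3 treated groups lay wholly below Control, with log2 fold changes of -0.84, -0.75 and -0.88. COX7A2, the isoform of other tissues, was also lower, at -0.68 in DOX and MYO and -0.74 in RemoLV. The ratio of COX7A1 to COX7A2, both in CPM, had medians of 3.83 in Control and 3.93 in Hyper, 3.56 in RemoLV, and 3.27 in DOX beside 3.41 in MYO, and its ranges overlapped among all groups except that Hyper (3.76 to 4.20) lay above DOX (3.05 to 3.70) and RemoLV (3.01 to 3.73).

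COX6A1, the widely expressed isoform of another pair, was at 31.4 to 37.7 CPM in Control and 27.3 to 39.7 in Hyper, 24.1 to 30.8 in RemoLV, and 24.0 to 39.8 in DOX beside 24.9 to 42.4 in MYO, and it was called in no comparison. COX6A2, its heart isoform outside the symbol rule, was at 351 to 661 CPM in Control and 484 to 794 in Hyper, against 232 to 285 in RemoLV, 233 to 307 in DOX and 274 to 334 in MYO. COX6A2 was lower, at -0.94 (adjusted p = 0.00036), -0.78 (adjusted p = 0.00157) and -1.02 (adjusted p = 0.000413) in DOX, MYO and RemoLV. The ratio of COX6A2 to COX6A1 was 9.33 to 18.6 in Control and 17.7 to 21.8 in Hyper, against 7.90 to 11.8 in RemoLV, 6.97 to 12.8 in DOX and 7.28 to 11.7 in MYO, so that the latter 3 groups overlapped Control only through Control 2, the library at 9.33. The ratios were not tested.

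COX4I2, the isoform known from lung and from low oxygen, was among the least abundant members: per kilobase of transcript, COX4I2 was at 10.3 CPM in Control, beside 1967 for NDUFA4 and 1854 for COX7A1. It was at 7.43, 6.95, 5.80, 7.95 and 6.97 CPM in DOX, 6.81, 7.48, 10.3, 8.74 and 9.81 in MYO, 10.98, 9.93 and 11.2 in RemoLV, 11.5, 15.4 and 14.9 in Hyper and 9.03, 10.3 and 6.84 in Control. The Hyper libraries were the highest and did not overlap Control. COX4I2 had a log2 fold change of 0.67 (95% interval 0.29 to 1.06, adjusted p = 0.127) in Hyper, which was not called, whereas DESeq2 called it (adjusted p = 0.0408) and so did edgeR without Control 2 (adjusted p = 0.0106) or without Hyper 1 (adjusted p = 0.031). It was not called without Control 1 (adjusted p = 0.37), Control 3 (0.53, adjusted p = 0.699), Hyper 2 (0.59, adjusted p = 0.423) or Hyper 3 (adjusted p = 0.371), and with only Control 2 kept it stood at 0.44 (adjusted p = 0.956). DOX and MYO together were lower than Hyper in COX4I2 (log2 fold change -0.84, SE 0.14, adjusted p = 0.000258) and lower than RemoLV (-0.46, SE 0.15, adjusted p = 0.0215). It was the only member lower in DOX and MYO than in RemoLV, and without RemoLV 1 or without RemoLV 3 the count was 0. COX4I1, its isoform of most tissues and outside the symbol rule, stood at -0.28 (adjusted p = 0.0798) in DOX and -0.23 (adjusted p = 0.14) in MYO and was lower, at -0.49 (adjusted p = 0.00871), in RemoLV. The ratio of COX4I1 to COX4I2 was 87.2 to 144 in Control, above the 79.2 to 83.5 of Hyper and the 58.7 to 78.5 of RemoLV, while DOX (104 to 138) and MYO (79.3 to 141) overlapped Control.

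NDUFA4L2, the paralog of NDUFA4 that is known to be induced by low oxygen, was at 17.7, 13.2, 17.1, 21.5 and 15.0 CPM in DOX, 20.5, 16.8, 17.4, 20.43 and 20.5 in MYO, 14.7, 14.9 and 9.09 in RemoLV, 13.9, 16.5 and 19.6 in Hyper and 12.99, 14.4 and 12.9 in Control. All 5 MYO libraries exceeded Control, and NDUFA4L2 was the only member called higher than Control in any group, by 0.51 (SE 0.17, adjusted p = 0.026) in MYO, a change that stood at -0.01 once counts were adjusted for GC content and transcript length. The call was also lost with the replicate number as a block (adjusted p = 0.089), without Control 1 (adjusted p = 0.0784), without Control 3 (adjusted p = 0.0913), with only Control 2 kept (0.40, adjusted p = 0.31) and with the table names (adjusted p = 0.0565). NDUFA4 itself was lower, at -0.61, -0.56 and -0.67 in DOX, MYO and RemoLV. The ratio of NDUFA4 to NDUFA4L2 was 50.4 to 69.6 in DOX and 48.5 to 62.3 in MYO, below the 90.2 to 132 of Control, while RemoLV (66.3 to 99.2) and Hyper (61.2 to 106) overlapped Control.

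COX6B2, the testis form of a subunit that docks cytochrome c, was at the edge of detection. Its summed counts were 40 over the 3 Control libraries (9 to 17 each) and 6 over the 3 RemoLV libraries (1 to 3 each), a ratio of scaled levels of 0.154 (95% exact interval for counting error 0.0535 to 0.366). DOX, MYO and Hyper held 65, 60 and 42 counts in all. The fitted log2 fold change of COX6B2 in RemoLV was -2.62 (SE 0.56, adjusted p = 0.000986). COX6B, the usual form of this subunit, was lower, at -0.42, -0.47 and -0.76 in DOX, MYO and RemoLV, and the call in DOX was lost with the replicate number as a block (adjusted p = 0.0813).

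In complex V, the ATP synthase, 13 of 16 members were lower in DOX and in MYO and 15 in RemoLV, with medians of -0.59, -0.54 and -0.74. ATP5MD, a small subunit of the membrane part that is also called USMG5 (chr14:114321616-114327517, minus strand), showed the largest change of all members in DOX and in MYO. It was at 193, 186, 172, 189 and 191 CPM in DOX, at 226, 190, 232, 207 and 194 in MYO and at 179, 184 and 161 in RemoLV, against 470, 460 and 411 in Hyper and 492, 387 and 571 in Control. The highest of these 13 libraries was below the lowest Control library by more than the whole range within DOX, MYO or RemoLV. ATP5MD was lower, at -1.37 (SE 0.11, adjusted p = 7.35e-08) in DOX, -1.20 (SE 0.11, adjusted p = 3.57e-07) in MYO and -1.47 (SE 0.13, adjusted p = 1.36e-07) in RemoLV. In Hyper it stood at -0.11 (95% interval -0.37 to 0.14).

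ATP5ME and ATP5MF, small subunits of the membrane part named after their values were seen, were lower too, at -1.08, -0.82 and -1.22 and at -0.94, -0.84 and -1.15 in DOX, MYO and RemoLV. The subunits of the catalytic part, ATP5F1A to ATP5F1E, varied from -0.75 (ATP5F1E) to 0.07 (ATP5F1D) in DOX, from -0.62 to 0.06 in MYO, with the same genes at either end, and from -0.80 (ATP5F1A) to -0.36 (ATP5F1D) in RemoLV. ATP5F1B, the catalytic beta subunit, was at 3625, 3030, 3341, 3416 and 3226 CPM in DOX, at 3581, 3421, 3431, 3155 and 3005 in MYO and at 2943, 2689 and 2317 in RemoLV, against 4052, 3630 and 3370 in Hyper and 4304, 3382 and 4561 in Control. DOX and MYO overlapped Control through Control 2, and RemoLV did not. It was lower, at -0.29 (adjusted p = 0.0449, and 0.111 with the replicate number as a block), -0.30 (adjusted p = 0.0419) and -0.62 (SE 0.13, adjusted p = 0.000733). ATP5F1A, the alpha subunit, had -0.29 in both DOX (adjusted p = 0.0803) and MYO (adjusted p = 0.0732) and was lower, at -0.80 in RemoLV. ATP5F1D, the delta subunit of the central stalk, stood at 0.07 in DOX and 0.06 in MYO and was lower, at -0.36 in RemoLV. Per kilobase, ATP5F1B at 2192 CPM and ATP5F1A at 1986 were the most abundant members in Control.

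Subunit c, the proton-carrying ring of the ATP synthase, is made from 3 genes with the same mature protein. ATP5MC1 was lower, at -0.39 (adjusted p = 0.028, and 0.0882 with the replicate number as a block), -0.34 and -0.72 in DOX, MYO and RemoLV, and ATP5MC2 at -0.46, -0.40 and -0.51. ATP5MC3 was called in none of them, with 0.03 (95% interval -0.21 to 0.27), 0.10 (-0.14 to 0.34) and -0.27 (-0.54 to 0.00). ATP5MC3 took 27.3 to 28.4% of the CPM of the 3 genes in Control and 23.8 to 28.4% in Hyper, against 33.2 to 34.4% in RemoLV, 33.1 to 36.4% in DOX and 33.9 to 35.8% in MYO. The share was thus above every Control and Hyper library in all 13 RemoLV, DOX and MYO libraries, including against Control 2, and it does not depend on the scaling of the libraries. ATP5IF1, the inhibitor that limits ATP hydrolysis by the synthase, was lower, at -0.70 (adjusted p = 6.43e-05), -0.64 (adjusted p = 0.000144) and -0.79 (adjusted p = 4.36e-05).

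**Figure D3:**
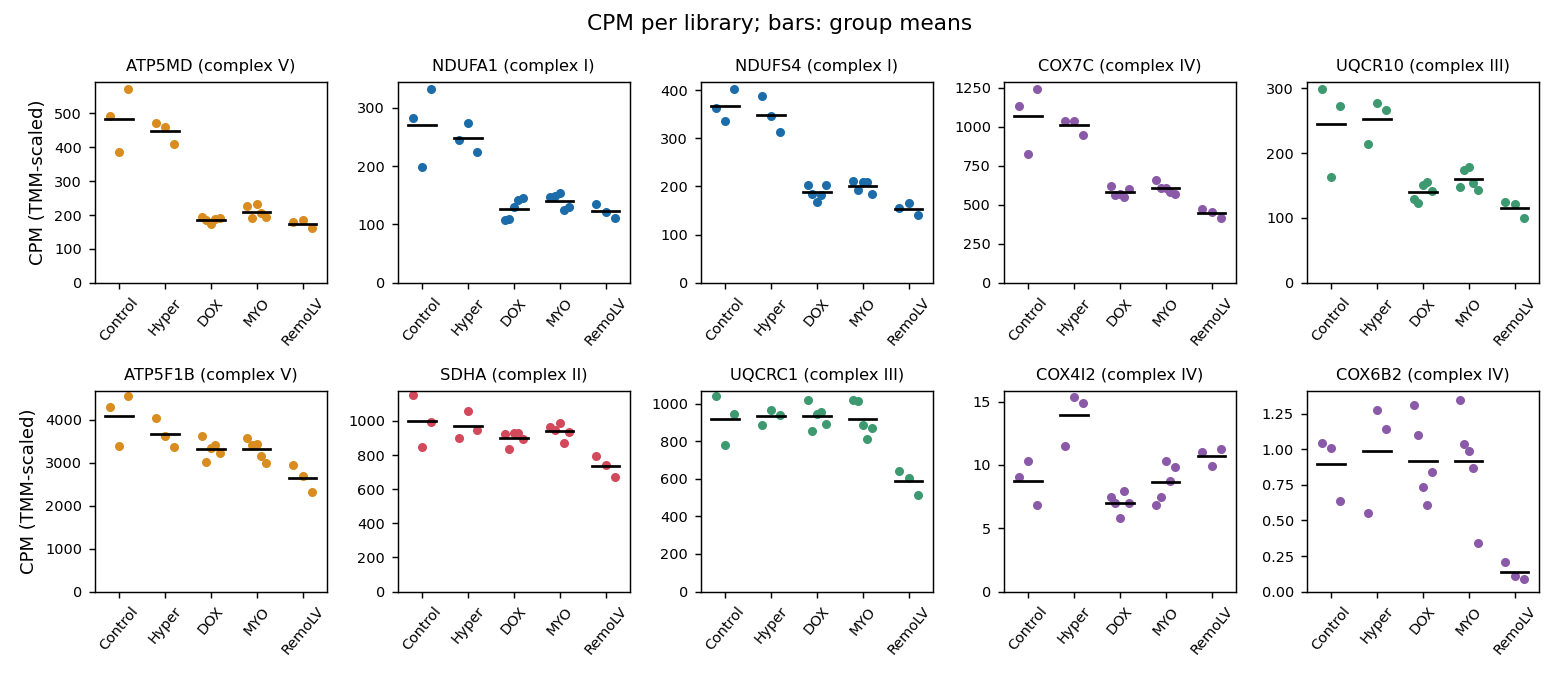
CPM (y axis, linear from 0) of 10 members in each of the 19 libraries (points) by group (x axis), 1 panel per gene, with black bars at the group means. ATP5MD shows 13 libraries between 161 and 232 below the Control range of 387 to 571, UQCRC1 sets RemoLV alone apart, and COX4I2 is highest in Hyper.

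In Hyper vs. Control no member was called in either direction, and neither was any of the 13552 genes (0% in each direction). At an unadjusted p of at most 0.05, 1 member was higher (COX4I2) and 0 were lower, beside 1124 genes higher and 1294 lower in all. DESeq2 also called 1 member higher and 0 lower. The median of the members was -0.06, with a range of -0.30 (NDUFA5, a complex I subunit of the matrix arm) to 0.67 (COX4I2), and 43 of 70 were below 0. The widest standard error was 0.44, for COX6B2, and the median standard error was 0.13. Complex medians were -0.07, -0.11, -0.05, 0.00 and -0.07 from complex I to V, and with library totals they were all above 0, at 0.10, 0.06, 0.13, 0.18 and 0.11, while with totals without the mitochondrially encoded genes they were at 0.04, 0.00, 0.06, 0.11 and 0.05. Without Control 2, 1 member was higher and 3 were lower, beside 9.32% and 9.08% of all genes, against 0% with it.

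Between DOX and MYO no member was called, and neither was any gene (0% in each direction), with 0 members at an unadjusted p of at most 0.05 beside 535 genes higher and 425 lower, and 0 with DESeq2. The median of the members was -0.09, and 63 of 70 were below 0, whereas with the table names the median was -0.02 and 45 were below 0. The interval of the difference bounds its size for well measured members: for ATP5MD it ran from -0.37 to 0.03, for UQCRC1 from -0.18 to 0.22 and for SDHA from -0.24 to 0.12.

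Compared with one another, the models differed as follows. RemoLV was lower than Hyper in 66 members and higher in 0, beside 18.6% and 17% of all genes tested, with a median of -0.71. Only COX4I2, COX6A1, NDUFA4L2 and ATP5MC3 were not called. DOX and MYO together were lower than Hyper in 51 members and higher in 0, beside 16.9% and 15.8% of all genes, with a median of -0.45. Neither comparison sets a group against Control, but the spread was estimated over all 5 groups, Control included. The 0 members higher were also 0 at an unadjusted p of at most 0.05 and with DESeq2 in both. DOX and MYO together were higher than RemoLV in 34 members and lower in 1, beside 16.8% and 17% of all genes, with a median of 0.31. Of the 34, 22 were in complex I, 2 in II, 1 in III, 3 in IV and 6 in V. This count changed with the library left out: without RemoLV 3, the library with the lowest members, 15 members were higher and 0 lower, and without Control 2, 41 were higher. The shares of all genes called in these settings were not computed, so a shift particular to the members was not tested. A difference among any of the 5 groups was called for 68 of 70 members, beside 63.3% of all genes. The exceptions were COX6A1 (adjusted p = 0.335) and ATP5MC3 (adjusted p = 0.0723).

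With the table names the picture changes sides, because the libraries named Control are then those labelled RemoLV, the lowest in these genes. In DOX vs. Control 30 members were higher and 1 lower (COX4I2, -0.61, adjusted p = 0.00857), beside 15% and 14.6% of all genes. In MYO 29 were higher and 0 lower, beside 14.8% and 14.4%. In RemoLV 65 were higher and 0 lower, beside 24% and 23.2%, and in Hyper 66 were higher and 0 lower, beside 18.7% and 17.2%. Medians were 0.29, 0.30, 0.79 and 0.71. The order of the libraries is the same under both namings, with Hyper and the file-labelled Control highest, DOX and MYO between, and the file-labelled RemoLV lowest.

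The size of the decrease varied with transcript length. Among the 35 members with the shorter RefSeq transcripts (317 to 805 bases) the median log2 fold change was -0.68, -0.61 and -0.83, and among the 35 longer ones (818 to 6639 bases) -0.37, -0.34 and -0.70. Across the 70 members, the Spearman correlation of log2 fold change with length was 0.462 for DOX, 0.453 for MYO, 0.428 for RemoLV and -0.157 for Hyper, and across the 11963 other genes -0.003, -0.061, 0.053 and -0.132. The Spearman correlation with GC content was 0.401, 0.455, 0.124 and 0.689 across members and 0.500, 0.558, 0.253 and 0.274 across other genes. Genes are not independent replicates, and all of these points share the same libraries and Control, so they stand as a description. After adjustment of each library for GC content and length, 41 members were lower in DOX, 36 in MYO and 61 in RemoLV, beside 19.3%, 18.1% and 29.1% of the genes with a known length. The medians of the members were then -0.30, -0.25 and -0.57. The median of DOX and MYO together vs. Hyper moved from -0.45 to -0.25.

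**Figure D4:**
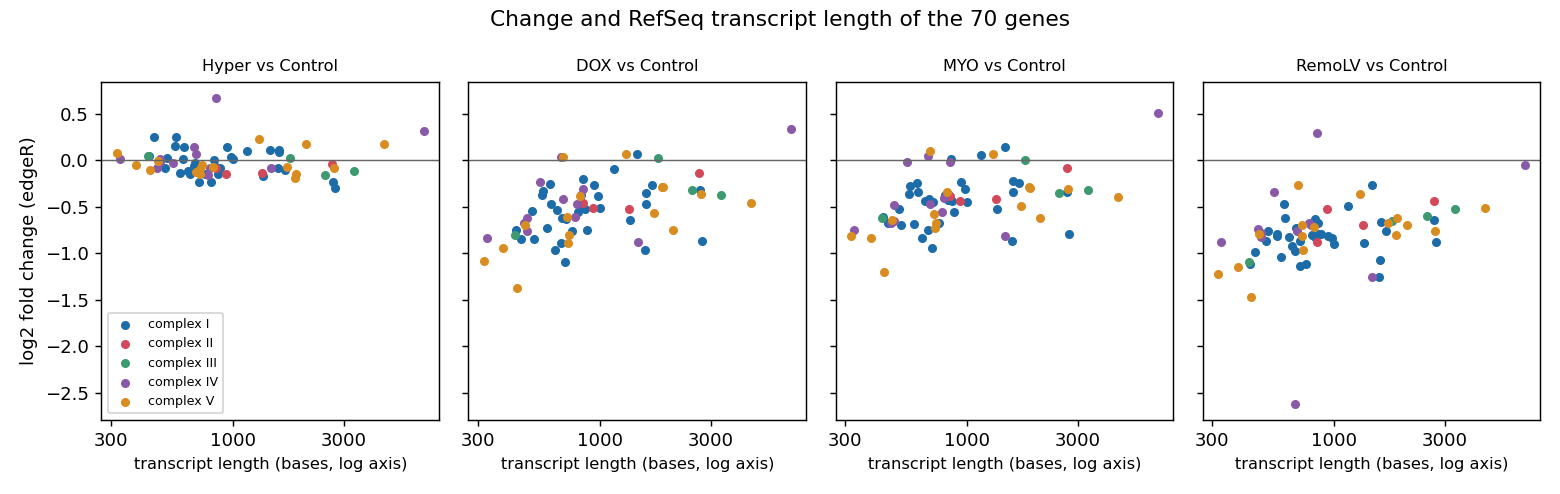
Log2 fold change vs. Control (y axis) of each of the 70 members (points, coloured by complex) against the length of its RefSeq transcript in bases (x axis, log scale), in 1 panel per comparison. Members under 818 bases have medians of -0.68, -0.61 and -0.83 in the panels of DOX, MYO and RemoLV, and the longer ones -0.37, -0.34 and -0.70.

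How the libraries are scaled bears on every value above. The 13 mitochondrially encoded protein genes took 20.7 to 28.8% of all counts in Control, 18.6 to 26.2% in Hyper, 17.3 to 21.2% in RemoLV, and 12.7 to 19.7% in DOX beside 13.7 to 19.5% in MYO, and TMM factors were 0.735, 0.965 and 0.696 in Control against 0.972 to 1.18 in DOX, MYO and RemoLV. With library totals in place of TMM, the median of all genes moved to 0.45, 0.44 and 0.52, and the median of the members to -0.07, 0.02 and -0.26. With library totals 21 members were lower and 6 higher in DOX, beside 5.2% and 41.5% of all genes, 11 and 8 in MYO, beside 5.56% and 40.6%, and 30 and 1 in RemoLV, beside 7.66% and 45.6%. With totals that leave out the mitochondrially encoded genes, the members' medians were -0.27, -0.17 and -0.37 and the all-gene medians 0.26, 0.26 and 0.41, with 39 lower and 5 higher, 26 and 5, and 45 and 1. Of all genes, 10.3% were then lower and 31.4% higher in DOX, 10.3% and 31% in MYO and 10.4% and 41.1% in RemoLV.

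**Figure D5:**
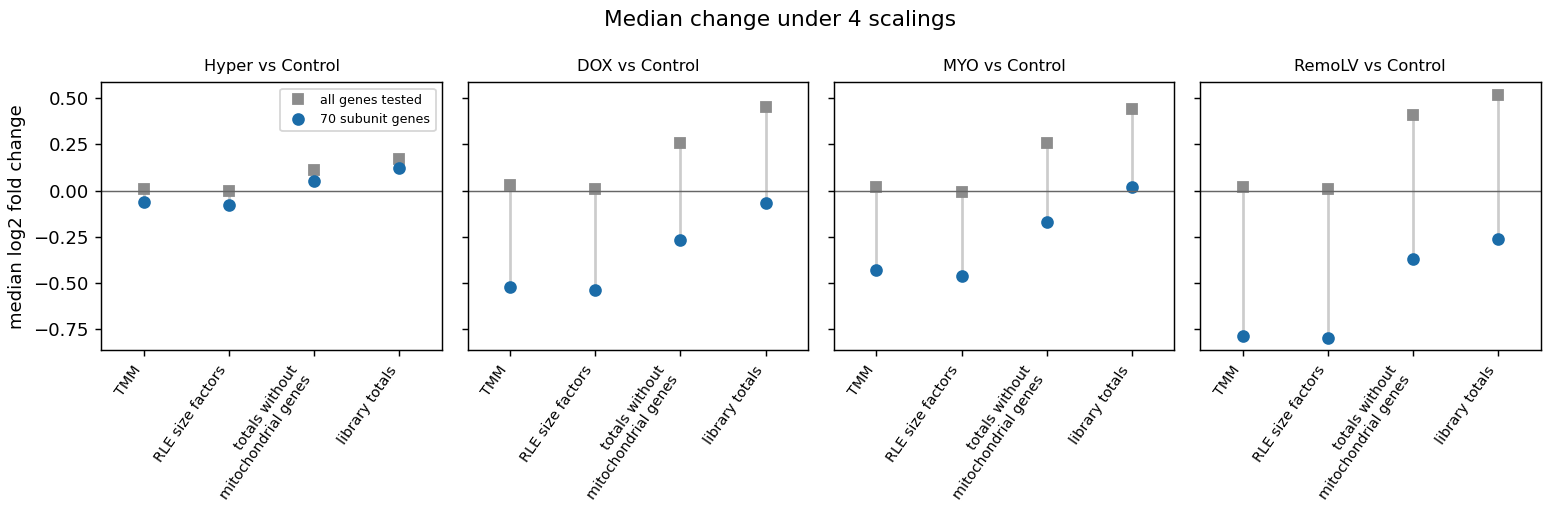
Median log2 fold change vs. Control (y axis) of the 70 members and of all 13552 genes tested under each scaling of the libraries (x axis), in 1 panel per comparison. Both medians shift together: under library totals all genes stand at 0.45, 0.44 and 0.52 and the members at -0.07, 0.02 and -0.26 in DOX, MYO and RemoLV.

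Other genes of the same process were taken from lists of their own. Of the 13 mitochondrially encoded subunits, 11 were lower in DOX, 11 in MYO and 8 in RemoLV, with medians of -1.04, -1.03 and -0.68, and 10, 10 and 3 were still lower with library totals. COX1, the catalytic subunit of complex IV, was lower, at -1.04, -1.06 and -1.24. ATP8 overlaps ATP6 and was at 0 in some libraries, so no fold is given for it. These values come from poly(A)-selected RNA. Of 38 assembly factors tested, 19 were lower and 4 higher in DOX, 12 and 6 in MYO and 23 and 2 in RemoLV. Of all genes tested, 21.1% were lower and 21% higher in DOX, 21.7% and 20.7% in MYO and 24% and 23.1% in RemoLV. LYRM7, a chaperone of the Rieske protein, was lower, at -1.26, -1.13 and -1.10, and NDUFAF4, a complex I factor, at -0.93, -0.79 and -1.40, whereas SURF1, needed for complex IV assembly, was higher by 0.60 in DOX and 0.74 in MYO. With library totals the counts were 3 lower and 11 higher, 2 and 14, and 6 and 10, the higher ones a smaller share of the list than the 41.5%, 40.6% and 45.6% of all genes.

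Among 15 electron carriers and enzymes of ubiquinone synthesis, 5 were lower and 2 higher in DOX, 3 and 2 in MYO and 9 and 1 in RemoLV. The counts in MYO were no larger a share of the list than the 21.7% lower and 20.7% higher of all genes. CYCS, cytochrome c, was lower, at -0.78 (adjusted p = 0.000532), -0.74 (adjusted p = 0.000843) and -0.89 (adjusted p = 0.000413). Of 14 enzymes of the TCA cycle, 6 were lower in DOX and in MYO and 13 in RemoLV, with 0 higher and medians of -0.31, -0.31 and -0.70. OGDH, a subunit of oxoglutarate dehydrogenase, stood at -0.34 in DOX and MYO (adjusted p = 0.0592 and 0.0556) and was lower, at -1.26 in RemoLV, and CS, citrate synthase, was lower, at -0.48, -0.52 and -0.85. With library totals the carriers had 1 lower and 6 higher in DOX, 0 and 5 in MYO and 3 and 5 in RemoLV, and the TCA cycle 0 and 6, 0 and 5, and 4 and 0, on a scale on which the median of all genes itself stood at 0.45, 0.44 and 0.52. With only Control 2 kept, the TCA cycle had 2, 1 and 7 lower.

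Among 15 regulators of mitochondrial genes, 6 were lower and 3 higher in DOX and in MYO, and 9 were lower and 1 higher in RemoLV, whereas with library totals 1 was lower and 5 higher, 2 and 4, and 3 and 3. The shares of the list that were higher did not exceed those of all genes under either scaling. PPARGC1A, the coactivator PGC-1 alpha, was at 164, 94.9, 77.6, 64.5 and 119 CPM in DOX, 114, 93.7, 103, 86.5 and 87.9 in MYO and 73.5, 69.8 and 88.7 in RemoLV, against 181, 140 and 135 in Hyper and 215, 147 and 221 in Control. Only DOX 1 of these 13 libraries overlapped Control. PPARGC1A was lower, at -0.90 (adjusted p = 0.00359), -1.0 (adjusted p = 0.00166) and -1.33 (adjusted p = 0.000418). ESRRG, a nuclear receptor that works with this coactivator, was lower, at -0.76, -0.73 and -1.78, and TFAM, the packaging factor of mitochondrial DNA, at -0.61, -0.51 and -0.46. ESRRA, its sister receptor, stood at 0.01 in DOX and -0.06 in MYO and was lower, at -0.79 in RemoLV. PPARGC1B, another coactivator of this family, was higher by 1.47 in DOX and 1.53 in MYO, and PERM1, a muscle regulator of the same genes, was higher by 0.52 and 0.73 in DOX and MYO and lower, at -0.44 in RemoLV. In Hyper none of the genes of these 5 lists was called, and neither was any other of the 13552 genes tested.

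Markers of cell types moved with the groups as well. Of 7 tested genes that cardiomyocytes of both chambers express, 5 were lower and 2 higher in DOX, 5 and 1 in MYO and 6 and 1 in RemoLV, with medians of -0.49, -0.48 and -1.02, and with library totals 2 were lower and 2 higher, 1 and 2, and 5 and 1. Their summed level was 35670 to 47320 CPM in Control and 39640 to 46240 in Hyper, against 28380 to 31050 in RemoLV, 29410 to 40040 in DOX and 31780 to 37060 in MYO. The 6 fibroblast markers summed to 2035 to 3432 CPM in Control and 1535 to 3823 in Hyper, against 10670 to 12330 in RemoLV, 4721 to 7020 in DOX and 4530 to 6606 in MYO. Of these 6, 3 were higher and 0 lower in DOX, 3 and 1 in MYO and 4 and 0 in RemoLV, and COL1A1, COL1A2 and COL3A1 held most of the sum in every library. The 5 ventricular markers summed to 25020 to 29140 in RemoLV against 50050 to 74550 in Control. The 2 detected blood markers summed to 36.2 to 350 CPM in Control and to at most 196 elsewhere. The fibroblast sum was thus above every Control and Hyper library in the groups in which OXPHOS subunits were lower, the cardiomyocyte sum lay wholly below Control in RemoLV and overlapped it in DOX and MYO, and their part in the result was not tested.

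The promoters of the members were searched for words of factors known to act on mitochondrial genes, in the 300 bases from 250 before to 50 after each RefSeq gene start of Sscrofa11.1, on both strands. All 70 members had such a window, spread over 18 chromosomes. The palindrome-like word of NRF1, GCGCATGC, was in 10 of 70 windows (14.3%) and in 3.06% of the windows of all 19534 genes. The ETS family word of GABPA, CCGGAAG, was in 19 (27.1%) against 10.99%. The word of YY1, AAGATGGC, was in 7 (10%) against 2.48%, and AAGGTCA, the word of nuclear receptors such as ESRRA and ESRRG, in 10 (14.3%) against 3.78%. At least 1 of the 4 words was in 32 members (45.7%) and in 18.6% of all windows, with 17 of 34 in complex I, 2 of 4 in complex II, 0 of 4 in complex III, 4 of 12 in complex IV and 9 of 16 in complex V. The NRF1 word can be counted on both strands where it is extended to a palindrome, and a match is a description of letters, not of a bound site. Members with and without a word had near-equal medians: -0.52 and -0.50 in DOX, -0.44 and -0.42 in MYO, -0.80 and -0.76 in RemoLV and -0.08 and -0.02 in Hyper. No test was made of these shares.

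Promoters of 4 named members are shown because between them they hold each of the 4 words, in genes whose values in DOX lie between -1.37 (ATP5MD) and -0.29 (ATP5F1A). No promoter of a member near or above 0 is shown. Each is the 200 bases before the RefSeq gene start in Sscrofa11.1, 5′ to 3′ on the strand of the gene, with the words in capitals. NDUFA5 is on the plus strand at chr18:23881672-23881871, SDHD on the plus strand at chr9:39790454-39790653, ATP5F1A on the minus strand at chr1:95750836-95751035 and ATP5MD on the minus strand at chr14:114327518-114327717.
NDUFA5: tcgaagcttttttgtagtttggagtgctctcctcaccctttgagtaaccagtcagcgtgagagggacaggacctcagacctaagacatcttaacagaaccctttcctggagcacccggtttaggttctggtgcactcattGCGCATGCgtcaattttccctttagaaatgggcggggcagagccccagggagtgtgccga
SDHD: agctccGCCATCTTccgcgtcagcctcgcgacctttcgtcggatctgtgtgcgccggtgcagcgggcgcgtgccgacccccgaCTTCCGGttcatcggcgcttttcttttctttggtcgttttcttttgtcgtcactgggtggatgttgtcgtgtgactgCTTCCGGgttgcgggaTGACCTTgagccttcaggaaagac
ATP5F1A: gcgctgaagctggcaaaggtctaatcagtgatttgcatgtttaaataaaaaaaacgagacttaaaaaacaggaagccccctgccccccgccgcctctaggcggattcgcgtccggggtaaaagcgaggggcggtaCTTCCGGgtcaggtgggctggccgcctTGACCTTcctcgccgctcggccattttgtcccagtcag
ATP5MD: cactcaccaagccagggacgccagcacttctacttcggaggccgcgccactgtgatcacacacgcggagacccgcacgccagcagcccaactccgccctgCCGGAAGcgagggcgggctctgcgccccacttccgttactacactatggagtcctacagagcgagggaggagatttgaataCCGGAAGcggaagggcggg
In NDUFA5 the capitals mark the NRF1 word, which begins 60 bases before the start. In SDHD they mark the reverse complement of the YY1 word at 194, of the ETS word at 117 and 40 and of the nuclear receptor word at 24 bases before the start. In ATP5F1A they mark the reverse complements of the ETS word at 65 and of the nuclear receptor word at 38, and in ATP5MD the ETS word at 100 and 19 bases before the start.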

How the data were processed

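Total RNA of the myocardium was poly(A)-selected and made into stranded libraries by the authors, who aligned the read pairs with STAR to Sscrofa11.1 and counted them per gene with HTSeq 0.11.1, as the submitters' processing notes and the study's methods state. The deposited count files hold raw counts of each library without normalization. A second table deposited by the authors has log2-like transformed expression values per sample, from which gene symbols and sample names were used here, and whose values served only to match each column to a count file by Spearman correlation. Its log2 fold changes and adjusted p-values from the authors' comparisons were not used.

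Members were mapped by Ensembl identifier. In R 4.3.3, counts were filtered by filterByExpr with the groups, scaled by TMM and tested with the edgeR 4.0.16 quasi-likelihood test fitted once over all 5 groups with no blocking factor, for 8 comparisons and for any difference among groups. Benjamini-Hochberg adjustment covered all 13552 genes, and a gene was called at an adjusted p of at most 0.05, without a fold threshold. CPM are counts scaled by the effective library size (TMM), and log2 CPM used a prior count of 2. The procedure was tested on simulated data. The members and all lists were chosen with earlier results of these data known. Named members were tissue isoforms and regulators, core catalytic subunits, the member of each complex with the largest change in each comparison with Control, and members past the study's threshold, and 1 of them is not reported by name here. Genes named from the other lists, ATP5ME, ATP5MF, ATP5F1E, NDUFV2 and the subunits not called were chosen after their values were seen. RefSeq of Sscrofa11.1 gave coordinates, transcript lengths and promoters, found for all 70 members. Each share and interval from counts covers counting error only.

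Same-numbered libraries of Control and DOX deviated together from their group means in all 3 pairs (correlations of 0.117 to 0.242), which comes from the data and from no statement in the labels, so values with the replicate number as a block are given for DOX where a call is lost. Alternatives were DESeq2 1.42.0, other scalings and filters, only the groups compared, the replicate number as a block, each library left out, the table names, and, chosen after seeing the data, totals without mitochondrially encoded genes, offsets for GC content and length by loess (span 0.3), and only Control 2 kept. For tables and figures, pandas 2.3.3 and numpy 2.4.6 ran under Python 3.11.15. The lists were 13 mitochondrially encoded subunits, assembly factors, electron carriers, TCA cycle enzymes, regulators and markers of 10 cell types, of which endothelial cells, smooth muscle and pericytes, macrophages, skeletal muscle and adipocytes had summed levels in Control of 779 to 964, 899 to 940, 151 to 193, 11280 to 16560 and 138 to 152 CPM, in RemoLV of 664 to 720, 609 to 869, 114 to 155, 1837 to 3678 and 139 to 270, in DOX of 730 to 1027, 618 to 1094, 117 to 231, 8631 to 12790 and 65.1 to 123, in MYO of 892 to 955, 734 to 947, 107 to 183, 9274 to 13780 and 73.3 to 121, and in Hyper of 770 to 867, 767 to 920, 114 to 171, 10290 to 14230 and 133 to 175.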

Additional observations from a re-analysis of the deposited data

How the results depend on the processing

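The counts of members called were 0 higher and 55 lower in DOX, 1 and 52 in MYO, 0 and 65 in RemoLV and 0 and 0 in Hyper against Control, and they kept within 1.5 times of these values with RLE size factors, with no filter or a filter of 10 counts in every library, and with only the groups compared. DESeq2 called 1 member higher in Hyper. With library totals 6 were higher and 21 lower in DOX, 8 and 11 in MYO and 1 and 30 in RemoLV, 42 were lower in RemoLV than in Hyper, and 2 were higher and 27 lower in DOX and MYO than in Hyper. With totals without mitochondrially encoded genes 5 were higher in DOX, 5 were higher and 26 lower in MYO, 1 was higher in RemoLV, 1 was higher in DOX and MYO than in Hyper, and 16 were higher in DOX and MYO than in RemoLV. With GC and length offsets 1 was higher in DOX and 1 in DOX and MYO than in Hyper. With only Control 2 kept 17 were lower in DOX, 0 higher and 7 lower in MYO, and 37 lower in RemoLV. Under the table names DOX had 30 higher and 1 lower, 29 and 0 in MYO, 65 and 0 in RemoLV and 66 and 0 in Hyper, 0 were lower in RemoLV than in Hyper, and 1 was higher and 58 lower in DOX and MYO than in RemoLV. The cause of these shifts was not tested, beyond that the table names exchange the groups and the scalings move all genes.

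For same-numbered libraries outside Control and DOX, the correlation of their deviations from the group means was -0.246 to 0.109 over 29 pairs, and 1 was above 0.1. The spread of such correlations without pairing was not computed, so these values do not decide whether libraries were paired. With the replicate number as a block 45 members were lower in DOX, 0 higher and 41 lower in MYO and 64 lower in RemoLV, and of the named members in DOX only COX6B, ATP5MC1, NDUFV1 and ATP5F1B lost their call. Leaving out 1 library at a time gave 43 to 60 members lower and 0 to 0 higher in DOX, 35 to 59 lower and 0 to 1 higher in MYO, 63 to 67 lower and 0 to 0 higher in RemoLV, and 0 to 3 lower and 0 to 1 higher in Hyper. It gave 59 to 66 lower in RemoLV than in Hyper, 39 to 54 lower in DOX and MYO than in Hyper, 15 to 41 higher and 0 to 1 lower in DOX and MYO than in RemoLV, and 62 to 69 differing among the 5 groups. Between DOX and MYO it gave 0 to 0. Apart from those given above, the shares of all genes called with the block or with a library left out were not computed. The counts in these settings thus do not show whether a shift was particular to the members. For a gene of few counts, such as COX6B2 with 6 counts in RemoLV, depth limits the size that can be stated.

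Named members not called in a comparison (66 values) changed sign in 40 values with library totals, 41 with table names, 22 with totals without mitochondrially encoded genes, 23 with GC and length offsets and 30 with only Control 2 kept. Log2 fold changes of called members, and medians of complexes larger than 1 SD between libraries, that changed sign before rounding were these. With library totals in DOX they were COX6B 0.03, ATP5MC1 0.06, NDUFV1 0.10, UQCRFS1 0.08 and ATP5F1B 0.15 and the medians of complex III 0.10. With library totals in MYO they were ATP5MC1 0.10, ATP5MC2 0.03, NDUFS1 0.11, SDHB 0.06, UQCRFS1 0.14, COX5A 0.05, ATP5F1B 0.15, SDHC 0.03, SDHD 0.01 and UQCRC2 0.08 and the medians of complex I 0.02, complex II 0.04 and complex III 0.11. With library totals in RemoLV they were COX4I1 0.03, ATP5MC2 0.00, SDHA 0.08, UQCRFS1 0.01 and ATP5F1D 0.16. With library totals in Hyper they were the medians of complex II 0.06, complex III 0.13 and complex V 0.11. With totals without mitochondrially encoded genes ATP5F1D was at 0.05 in RemoLV, and in Hyper the medians of complex III and V were 0.06 and 0.05. With GC and length offsets NDUFA4L2 was at -0.01 in MYO. With only Control 2 kept COX5A was at 0.00 in MYO. With table names in DOX they were COX6A2 0.07, COX6B 0.39, COX7A1 0.04, COX7A2 0.12, NDUFA4 0.10, ATP5MC1 0.40, ATP5MC2 0.05, ATP5IF1 0.11, NDUFV1 0.36, SDHB 0.43, UQCRFS1 0.20, COX5A 0.28, ATP5F1B 0.36, NDUFA1 0.05, SDHC 0.14, UQCR10 0.30, COX7C 0.40, ATP5MD 0.15, SDHD 0.04, NDUFS4 0.30 and NDUFA5 0.06 and the medians of complex I 0.34, complex II 0.23, complex III 0.30, complex IV 0.18 and complex V 0.20. With table names in MYO they were COX6A2 0.24, COX6B 0.23, COX7A1 0.12, COX7A2 0.01, NDUFA4 0.07, ATP5MC1 0.30, ATP5MC2 0.11, ATP5IF1 0.13, NDUFS1 0.27, SDHB 0.48, UQCRFS1 0.17, COX5A 0.24, ATP5F1B 0.29, NDUFA1 0.20, SDHC 0.31, UQCR10 0.46, COX7C 0.41, ATP5MD 0.21, SDHD 0.08, NDUFS4 0.38, NDUFA5 0.04 and UQCRC2 0.24 and the medians of complex I 0.37, complex II 0.32, complex III 0.35, complex IV 0.23 and complex V 0.25. With table names in RemoLV they were COX4I1 0.49, COX6A2 1.02, COX6B 0.76, COX6B2 2.62, COX7A1 0.88, COX7A2 0.74, COX8A 0.60, NDUFA4 0.67, ATP5MC1 0.72, ATP5MC2 0.51, ATP5IF1 0.79, NDUFS1 0.64, NDUFV1 0.66, SDHA 0.44, SDHB 0.88, UQCRC1 0.65, UQCRFS1 0.52, COX5A 0.70, ATP5F1A 0.80, ATP5F1B 0.62, NDUFA1 1.14, SDHC 0.70, UQCR10 1.09, COX7C 1.25, ATP5MD 1.47, SDHD 0.53, NDUFS4 1.26, NDUFA5 0.88, UQCRC2 0.60 and ATP5F1D 0.36 and the medians of complex I 0.83, complex II 0.61, complex III 0.63, complex IV 0.75 and complex V 0.74. With table names in Hyper they were the medians of complex II 0.48, complex III 0.55 and complex V 0.68.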
